A study of Homo sapiens with 5 samples.

Results

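This account describes, among 5 human cell lines, the genes that set the 4 lines with PAX5 RNA apart from the line without it. MKL-1, MKL-2 and WaGa, from Merkel cell carcinoma, and REH, from pre-B-cell acute lymphoblastic leukaemia, had PAX5 at 10 TPM (transcripts counted relative to all transcripts of a library and corrected for length) or more. MCC13, also labelled as Merkel cell carcinoma, had PAX5 under 1 TPM. Genes were taken as shared by the 4 PAX5-expressing lines and lacking in MCC13 where every one of the 4 reached 10 TPM and MCC13 stayed under 1 TPM, and the reverse class used the same thresholds with the sides exchanged. The rule found 38 shared genes and 244 MCC13 genes among 57905 genes in the table, of which 22250 reached 1 TPM in at least 1 line and were counted.

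All 5 lines are labelled WT for genotype, were grown in the same serum-supplemented medium and received no treatment in the labels. Poly(A) RNA was sequenced from 1 library per line with a strand-keeping kit. Each group of the comparison is therefore a set of single established lines, and MCC13 stands alone on its side. As background, MKL-1, MKL-2 and WaGa carry Merkel cell polyomavirus whereas MCC13 does not, and the lines differ in tumour, donor and growth habit. PAX5 status and all these other differences between MCC13 and the 4 lines cannot be told apart. Because the lines and the genes were both chosen by these TPM values, the levels and counts are given as a description with no test.

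PAX5 is a paired-box transcription factor that commits progenitors to the B lineage, where it switches on B-cell receptor and signalling genes and shuts down genes of other lineages. EBF1 acts beside it and the pair maintain each other in B cells. Merkel cell carcinoma is a neuroendocrine skin cancer that can express early B-lineage proteins without being a B-cell tumour. In cells that grow attached, YAP and TAZ are coactivators that bind DNA through TEAD factors and switch on matrix, adhesion and cytoskeletal genes.

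The lines were checked against markers. Of 9 Merkel cell and neuroendocrine markers, 8 or 9 reached 10 TPM in each of MKL-1, MKL-2 and WaGa, with summed levels of 3782 to 7353 TPM. None reached 10 TPM in MCC13 or REH, where ATOH1, INSM1, ISL1, KRT20 and NEUROD1 were listed at 0, so MCC13 lacked the defining markers of its labelled tumour. Of 8 early B-cell markers, 7 reached 10 TPM in REH and none in MCC13. Among the 5 lines, 15949 to 16921 genes reached 1 TPM. Mitochondrially encoded genes took 0.783% of all TPM in REH, 3.52% in MCC13 and 6.37% to 7.84% in the other 3 lines. The read depth behind TPM values is unknown. The median gene was lower in MCC13 than the mean of the 4 lines by -0.28 on log2(TPM + 1), a scale used for all differences here. That median was -0.19 after quantile normalization.

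The shared class was small. Its 38 genes made up 0.171% of those counted, against 7272 genes that reached 10 TPM in all 5 lines. They took 0.173% to 0.251% of all TPM in the 4 lines and 0.00138% in MCC13. Of these 38 genes, 30 were protein-coding by GENCODE 29. The gap, the distance from MCC13 to the nearest of the 4 lines, ran from 2.73 to 6.84 with a median of 3.64. For 35 of them it exceeded the whole range across the 4 lines, and the exceptions were RCOR2, DTX1 and GFI1. Both tumours limited the membership. For the 3 Merkel cell carcinoma lines alone 330 genes met the rule, and the shared genes were 11.5% of these. They were 7.95% of the 478 genes that REH held against MCC13.

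**Figure D1:**
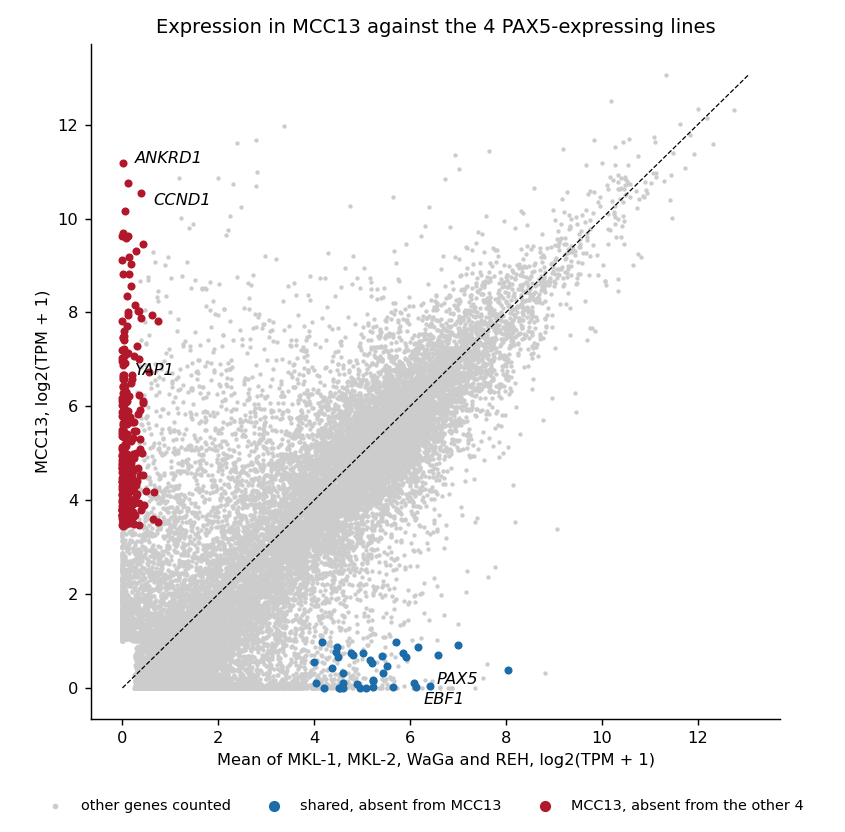
Level of each counted gene in MCC13 (vertical axis, log2(TPM + 1)) against its mean over MKL-1, MKL-2, WaGa and REH (horizontal axis, same scale); the dashed line marks equal levels. The 38 shared genes (blue) lie along the bottom edge and the 244 MCC13 genes (red) along the left edge, with ANKRD1 at 2320.1 TPM in MCC13 highest among the red points.

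The B-lineage factors led the shared class. EBF1 (ENSG00000164330) had 64.6 TPM in MKL-1, 55.5 in WaGa, 52.7 in MKL-2, 119.7 in REH and 0.0126 in MCC13. Its gap of -5.73 was the largest of any protein-coding member, and its 3 Merkel cell carcinoma levels lay close together below REH. PAX5 (ENSG00000196092), which set the split, had 91.9 TPM in MKL-1, 38.4 in WaGa, 75.0 in MKL-2, 186 in REH and 0.0228 in MCC13, a gap of -5.27. The deposited signal over 12 PAX5 exons gave the same order, with sums of 31236 in MKL-1, 12738 in WaGa, 25685 in MKL-2 and 88044 in REH. All 12 exons carried signal in these 4 lines. In MCC13 only exon E10 (chr9:36833272-36840633 in the deposited table, minus strand; the submitters' processing notes name hg19) did, at 8.08.

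Other members are known from blood cells. PTPN6, the SHP-1 phosphatase that dampens antigen receptor signals, had 11.6 TPM in MKL-1, 11.9 in WaGa, 33.1 in MKL-2, 61.1 in REH and 0.245 in MCC13. ARHGAP9, a GTPase-activating protein of blood cells, had 67.7 TPM in MKL-1, 39.2 in WaGa, 43.6 in MKL-2, 34.4 in REH and 0.390 in MCC13. REH was thus the lowest of the 4 for ARHGAP9 and the highest for PTPN6. FAM65B stood at 39.5 to 78.2 TPM in the Merkel cell carcinoma lines, 10.1 TPM in REH and 0.0116 TPM in MCC13. LMO2, a LIM-domain adaptor of early blood development that also stood on the list of genes repressed by PAX5, had 57.6 TPM in MKL-1, 12.1 in WaGa, 89.0 in MKL-2, 14.9 in REH and 0.676 in MCC13. GFI1, a zinc finger repressor of blood and of sensory hair cells, stood at 144 to 248 TPM in the Merkel cell carcinoma lines but only 11.8 TPM in REH, against 0.634 TPM in MCC13. Its spread across the 4 lines, 4.29, was larger than its gap of -2.97.

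Some other members, picked here after their values were seen, are known from neurons or as ion channels. ELAVL4, the neuronal RNA-binding protein HuD, had 39.4 TPM in MKL-1, 33.5 in WaGa, 36.7 in MKL-2 and 16.8 in REH, and was listed at 0 in MCC13. UNC13A, which primes synaptic vesicles, had 60.5 TPM in MKL-1, 114 in WaGa, 80.7 in MKL-2, 17.9 in REH and 0.665 in MCC13. MYT1, a zinc finger factor of neural progenitors, had 26.1 TPM in MKL-1, 106 in WaGa, 33.7 in MKL-2, 18.3 in REH and 0.124 in MCC13. For each of these 3 genes REH was the lowest of the 4 lines, yet lay far above MCC13. UNC79, a subunit of the NALCN sodium leak channel complex, was more even, at 22.6 TPM in REH and 28.3 to 33.1 TPM in the Merkel cell carcinoma lines, against 0.0633 TPM. KCNQ1, a voltage-gated potassium channel, stood at 17.2 TPM in REH, 29.2 to 57.6 TPM in the other 3 and 0.00208 TPM in MCC13. NTN3, of the netrin guidance family, stood at 11.2 TPM in REH, 16.9 to 23.6 TPM in the other 3 and 0.000970 TPM in MCC13.

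Chromatin, metabolic and signalling genes made up much of the rest. HMGN5, which binds nucleosomes, had 70.6 TPM in MKL-1, 50.6 in WaGa, 28.9 in MKL-2, 31.3 in REH and 0.245 in MCC13. RCOR2, a CoREST family corepressor, had 172 TPM in MKL-1, 107 in WaGa, 518 in MKL-2, 26.8 in REH and 0.897 in MCC13. HMGN5 in REH fell inside the Merkel cell carcinoma range, while RCOR2 in REH was well under it. ASS1, which makes argininosuccinate in arginine synthesis, stood at 61.2 to 142 TPM in the Merkel cell carcinoma lines, 16.9 TPM in REH and 0.0776 TPM in MCC13. PIK3R2, a regulatory subunit of PI3-kinase, stood at 76.7 to 171 TPM, 18.3 TPM and 0.825 TPM in the same order. RASAL1, which switches off Ras, ran the other way, with 20.2 to 53.2 TPM in the Merkel cell carcinoma lines, 154 TPM in REH and 0.0188 TPM in MCC13. METTL7A, a methyltransferase-like protein, was the most even member, at 13.8 TPM in MKL-1, 15.4 in WaGa, 17.1 in MKL-2 and 15.7 in REH, a range of 0.30, against 0.0704 TPM in MCC13.

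**Figure D2:**
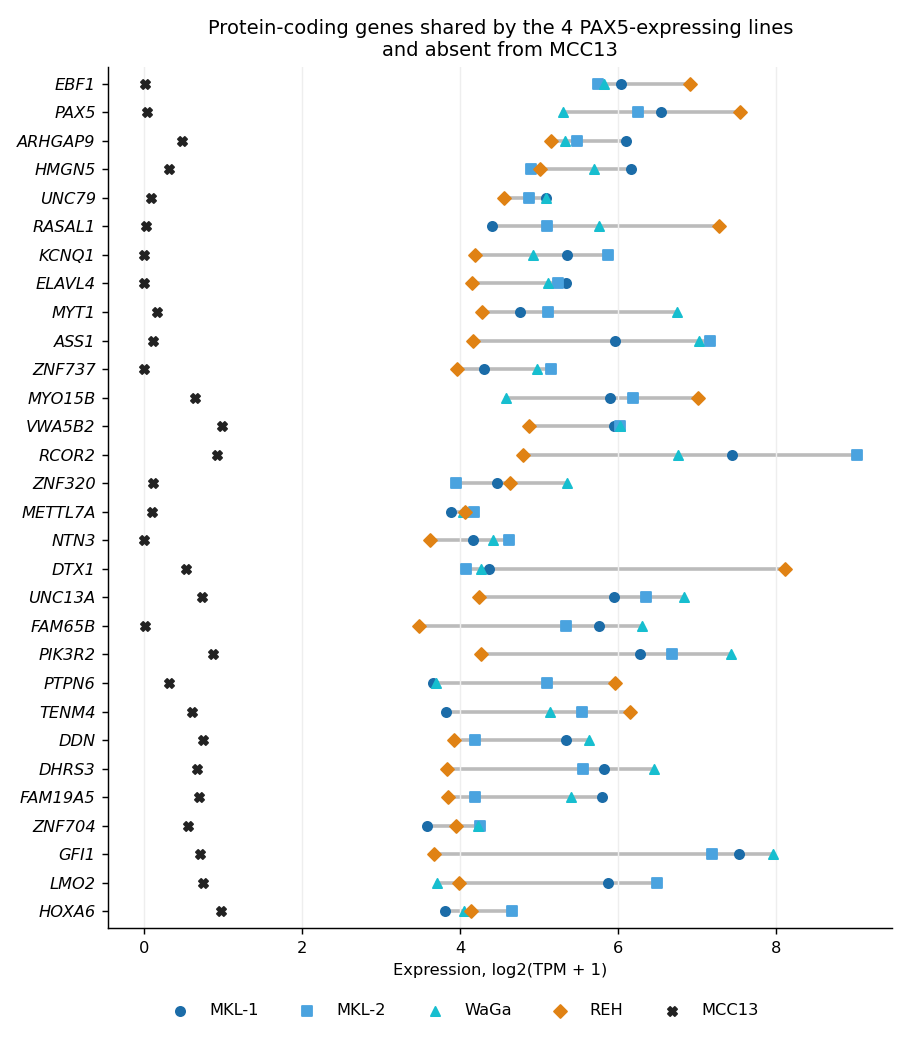
Level (horizontal axis, log2(TPM + 1)) of each protein-coding gene of the shared class in each of the 5 lines, 1 library per line, ordered by the gap; grey bars span the 4 PAX5-expressing lines. MCC13 (black crosses) stays left of 1 in every row while the nearest of the other lines lies at least 2.83 to its right, for HOXA6.

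The remaining protein-coding members spanned several families. ZNF320 and ZNF737 are zinc finger genes with many close paralogues, so their levels are uncertain. ZNF704, TENM4 (a teneurin of the cell surface), DDN, DHRS3 (a retinaldehyde reductase), FAM19A5, HOXA6 (a homeobox factor), MYO15B and VWA5B2 stood at 0.467 to 0.983 TPM in MCC13. HOXA6 stood at 12.96 to 24.3 TPM in the 4 lines and 0.964 TPM in MCC13. The 7 members passed over in naming were pseudogenes and clone-named transcripts, among them a pseudogene of a mitochondrial gene with the largest gap of all, -6.84, whose reads can be shared with the mitochondrial genome. MIR378I, a miRNA gene absent from GENCODE 29, stood at 74.1 TPM in REH and 11.2 to 18.1 TPM in the Merkel cell carcinoma lines, but poly(A) libraries do not measure its mature product.

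REH was placed unevenly within the shared class. It lay below the range of MKL-1, MKL-2 and WaGa for 23 of the 38 genes, above it for 8 and inside it for 7. The median level of the members was 17.5 TPM in REH and 35.8 to 39.7 TPM in the Merkel cell carcinoma lines. DTX1, a Notch pathway ubiquitin ligase, showed the widest separation upwards, with 19.6 TPM in MKL-1, 18.1 in WaGa, 15.8 in MKL-2 and 276 in REH, against 0.448 in MCC13. GFI1, given above, showed the widest downwards, by -3.51 from the nearest Merkel cell carcinoma line. VWA5B2 combined a smaller separation of -1.08 with a tight set of the other 3, with 60.9 TPM in MKL-1, 63.8 in WaGa, 64.1 in MKL-2, 28.3 in REH and 0.983 in MCC13. DTX1 and RASAL1 are neighbours on chromosome 12, on opposite strands, and both had their highest level in REH. They were the only adjacent members, 2 of 35 genes placed (5.71%), where 0.325% of 21228 placed genes lay next to a shared gene.

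**Figure D3:**
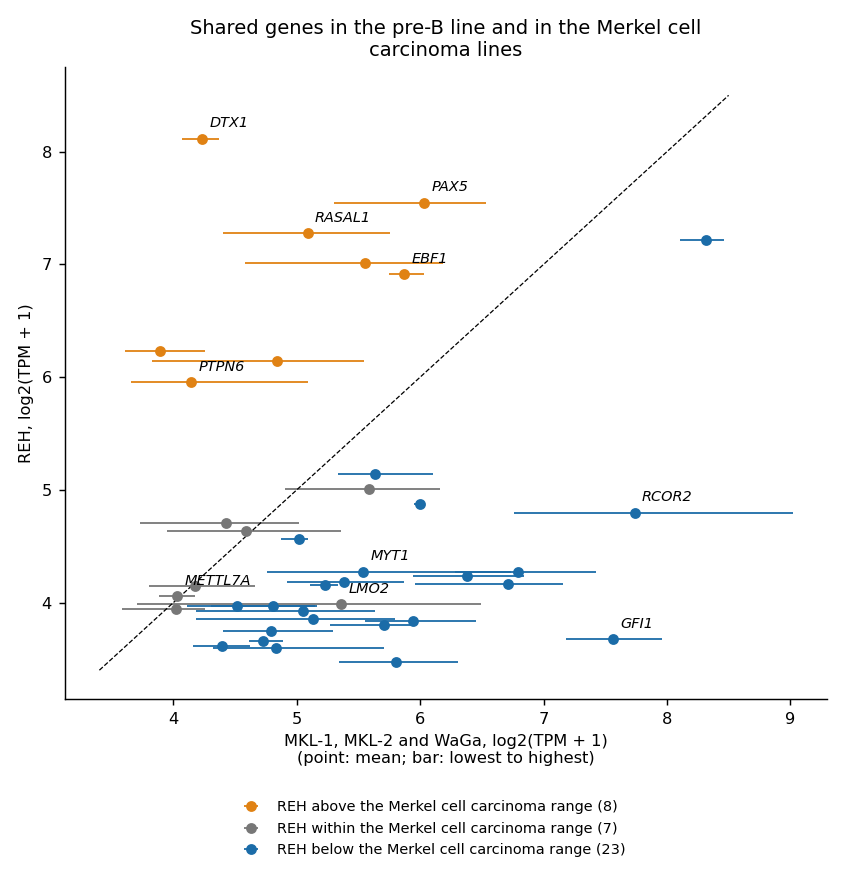
Level of each of the 38 shared genes in REH (vertical axis, log2(TPM + 1)) against MKL-1, MKL-2 and WaGa (horizontal axis, same scale; point, mean; bar, lowest to highest); the dashed line marks equal levels. REH lies below the bar for 23 genes (blue), inside it for 7 (grey) and above it for 8 (orange), DTX1 topmost.

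Membership near the thresholds was close. Just inside 10 TPM were FAM65B (10.1 TPM in REH) and ZNF704 (10.99 TPM in MKL-1), and just outside were H19 (9.77 TPM in REH) and EML6 (9.62 TPM in REH). Just inside 1 TPM in MCC13 were VWA5B2 (0.983 TPM) and HOXA6 (0.964 TPM), and just outside were DGKE (1.05 TPM) and SYTL1 (1.11 TPM).

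Promoters were examined as a property that the rule did not use. RefSeq promoters (GRCh38.p14, 250 bases before to 50 after the start) were matched for 21 shared genes. The palindrome that EBF1 binds, read as TCCC and GGGA with any 2 bases between them and searched on both strands, was in 3 of these 21 (14.3%), in 1.3% of 13108 promoters of counted genes and in 1.2% of all 27305 promoters. The match is a description and not a binding site. The 3 windows are shown because EBF1 is itself a member, each 5′ to 3′ on the gene's strand with the matched letters in capitals, for PTPN6 (chr12:6946398-6946451, plus strand), PIK3R2 (chr19:18153016-18153069, plus strand) and HOXA6 (chr7:27147899-27147952, minus strand).
PTPN6: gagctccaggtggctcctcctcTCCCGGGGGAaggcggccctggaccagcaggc
PIK3R2: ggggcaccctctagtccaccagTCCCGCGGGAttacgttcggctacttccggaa
HOXA6: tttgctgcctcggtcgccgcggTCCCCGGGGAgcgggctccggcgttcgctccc
In the 3 genes the letters began 157, 125 and 156 bases before the start. With 21 promoters the share rests on few genes.

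A wider class took genes with MCC13 below all 4 lines by a gap of 1 or more, that is at least a doubling of TPM + 1. It held 1029 of the 22250 genes (4.62%), and MCC13 lay below the 4 lines by any amount for 27.2%. MCC13 lay above all 4 by a gap of 1 or more for 1843 genes (8.28%) and by any amount for 19.9%. Gene lists were chosen with earlier results of these data known, so their counts are no independent evidence of a direction, and each median is set beside the -0.28 of all counted genes. Of 22 counted B-cell genes that PAX5 activates, 3 were below, 2 were above and 17 were neither, with a median difference of -1.82. Without REH 4 were above, and the 3 below became 1 with a pseudocount of 5 and 6 with a pseudocount of 0.1. Of 24 entries, 17 reached 10 TPM in REH but only 2 or 3 did in each Merkel cell carcinoma line and 2 in MCC13. The summed level was 4672 TPM in REH and 51.5 to 83.9 TPM in the Merkel cell carcinoma lines. In MCC13 it was 114.8 TPM, above each Merkel cell carcinoma line. The 3 below were LEF1, BACH2 and IRF8. LEF1, a Wnt pathway factor, had 13.8 TPM in MKL-1, 19.7 in WaGa, 12.4 in MKL-2, 439 in REH and 1.38 in MCC13. BACH2, a B-cell repressor, stood at 3.28 to 5.34 TPM in the Merkel cell carcinoma lines, 70.8 TPM in REH and 0.00699 TPM in MCC13. The 2 above were adhesion adaptors, NEDD9 at 44.0 TPM and BCAR3 at 57.6 TPM in MCC13, against at most 3.85 TPM in the other lines. Of 12 counted genes that PAX5 represses in B cells, LMO2 was below and none was above (median -0.54).

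Among 191 counted lineage transcription factors, 22 were below and 42 above (median 0.26), beside 4.62% and 8.28% of all counted genes. Below, after the members already described, was POU3F2, a neural POU factor, at 9.49 TPM in REH, 16.7 to 77.7 TPM in the Merkel cell carcinoma lines and 0.155 TPM in MCC13. SOX4, a factor of progenitor cells, was nearly level across the 4 lines, at 129 TPM in MKL-1, 133 in WaGa, 147 in MKL-2 and 157 in REH, and stood at 20.3 TPM in MCC13. Of 44 counted neural cell surface and synaptic genes, 6 were below and none above, with a median of -2.98. For most of that list REH was low as well: 7 of 45 members reached 10 TPM in REH and 11 in MCC13, against 38 to 42 in the other 3 lines. Without REH the number below became 32 for the neural list and 52 for the lineage factors. Of 36 counted leukocyte signalling genes, PTPN6, INPP5D and LSP1 were below and none was above (median -1.05). INPP5D, the SHIP phosphatase, stood at 161 TPM in REH and 2.18 to 5.13 TPM in the Merkel cell carcinoma lines, and was listed at 0 in MCC13. LSP1 had its highest level in WaGa, 188 TPM. Without WaGa 6 leukocyte genes were below, and without REH 10 were above.

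Some cell cycle genes lay below in MCC13, RB1 by the widest gap. RB1, the retinoblastoma suppressor that restrains E2F factors, had 69.8 TPM in MKL-1, 82.9 in WaGa, 57.3 in MKL-2, 64.0 in REH and 2.56 in MCC13, a gap of -4.03. The 4 lines differed by 0.52 among themselves. Of 32 counted pocket protein, CDK inhibitor and cyclin genes, 7 were below (median -0.72). E2F2, an activator of replication genes, stood at 101 to 167 TPM in the 4 lines and 11.9 TPM in MCC13. The others were the activator E2F1, the pocket protein gene RBL2 and the inhibitor genes CDKN1C, CDKN2D and CDKN2C. MCC13 stood at 71.1 TPM for E2F1, 15.9 TPM for RBL2, 3.09 TPM for CDKN1C and 15.2 TPM for CDKN2D. The gene above was CCND1, cyclin D1, which inactivates RB1 with its kinase partners, at 1484 TPM in MCC13 against at most 0.800 TPM elsewhere. Of 43 DNA replication and repair genes, MCM6, CDT1, MCM4, PCNA and MCM2 were below and none above (median -0.61), and without MKL-2 8 were below. MCM6, a subunit of the replicative helicase, had 267 TPM in MKL-1, 270.2 in WaGa, 278 in MKL-2, 271 in REH and 82.7 in MCC13.

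Some transcriptional and chromatin regulators also lay below. Of 15 genes of the MYC, MYB and MAX network, MYB, MXD3, MNT, MGA and MYCL were below and MYBL1 was above (median -0.64). MYB, a factor of progenitor cells, stood at 16.4 to 21.7 TPM in the Merkel cell carcinoma lines, 558 TPM in REH and 3.33 TPM in MCC13. Of 48 counted chromatin regulators, 8 were below and 2 above (median -0.59). SMARCD1, a subunit of BAF remodelling complexes, had 80.6 TPM in MKL-1, 84.2 in WaGa, 87.3 in MKL-2, 197 in REH and 6.90 in MCC13. HMGA2, an oncofetal chromatin protein, was above at 258 TPM, against no more than 0.404 TPM elsewhere, and so was the remodeller SMARCA1 at 75.1 TPM, with at most 0.556 TPM. Of 30 BCL2 family and cell death genes, BCL2 was below and 8 were above (median 0.70). BCL2, which blocks apoptosis, stood at 52.8 to 61.7 TPM in the Merkel cell carcinoma lines, 139.9 TPM in REH and 6.65 TPM in MCC13.

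The reverse class was larger. MCC13 held 244 genes at 10 TPM or more that stayed under 1 TPM in all 4 lines, 1.1% of the genes counted. They took 2.59% of all TPM in MCC13 against at most 0.00295% in any other line. By type, 197 were protein-coding and 26 were lincRNA genes. Their MCC13 levels ran from 10.0 to 2320.1 TPM with a median of 29.1, and 48 reached 100 TPM. The gap had a median of 4.65 and reached 11.15. In the 4 lines 41 members were listed at 0 throughout and 109 stayed under 0.1 TPM. Members were listed at 0 in 44.3% to 49.6% of cases per line, against 5.88% to 11.4% of counted genes. More zeros among members follow from the rule, which admits only genes under 1 TPM in these 4 lines. A listed 0 may also stand for an estimate that failed. The Merkel cell carcinoma lines alone gave 410 such genes (59.5% of them members) and REH alone 885 (27.6%).

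The MCC13 genes with the widest gaps were matrix, adhesion and growth genes. ANKRD1, a stretch-responsive transcript induced by YAP, stood at 2320.1 TPM in MCC13 and 0.0214 TPM in WaGa, and was listed at 0 in MKL-1, MKL-2 and REH. TM4SF1, a tetraspan membrane protein, had 1136 TPM against at most 0.0672 TPM (REH). No value of the 4 lines came near MCC13 for these genes. MMP1, interstitial collagenase, had 829 TPM in MCC13 against at most 0.0285 TPM (WaGa), and GJA1, the gap junction protein connexin 43, had 788 TPM and was listed at 0 in the other 4. COL4A1 and COL4A2, the basement membrane collagen chains, had 793 and 766 TPM, with REH the highest of the others at 0.387 and 0.193 TPM. MYL9, a regulatory light chain of contractile myosin, had 550.5 TPM and was listed at 0 in the other 4. The kinase receptor AXL at 579 TPM, the secreted protein FSTL1 at 633 TPM and the tight junction protein CLDN1 at 451 TPM were also among the genes of widest gap, beside CCND1 (given above).

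YAP and TAZ pathway genes were above in most cases. Of 31 counted factors and targets, 24 (77.4%) had MCC13 above all 4 lines by a gap of 1 or more and none below, beside 8.28% of all counted genes above. The median difference of the list was 4.14, and 8 of its genes were MCC13 members. Its summed level was 8957 TPM in MCC13, compared with 241.8 to 457.3 TPM for the other lines. Both coactivators were listed at 0 in 3 of the 4 lines. YAP1 had 100.1 TPM in MCC13 and 0.0104 TPM in WaGa and was listed at 0 in MKL-1, MKL-2 and REH, while WWTR1, which encodes TAZ, had 408 TPM in MCC13 and 1.83 TPM in MKL-1 and was listed at 0 in MKL-2, WaGa and REH. TEAD2, a DNA-binding partner, had 78.2 TPM in MCC13 against at most 0.163 TPM elsewhere. The secreted targets CYR61 and CTGF were not members, since the other lines held some: CYR61 had 6.57 TPM in MKL-1, 2.88 in WaGa, 5.83 in MKL-2, 0.220 in REH and 1849.7 in MCC13. CTGF had 0.344 TPM in MKL-1, 0.289 in WaGa, 3.06 in MKL-2, 5.68 in REH and 884 in MCC13.

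Promoters of the MCC13 genes were examined in the same way. GGAATG, the core that TEAD factors bind, was in 7 of the 19 YAP and TAZ list genes above (36.8%), in 29 of 178 MCC13 genes (16.3%) in 1441 of the 13108 promoters of counted genes and in 3836 of all 27305 promoters, on either strand. The share among MCC13 genes lay above both, and further above that of counted genes, from which the members were drawn. The YAP and TAZ list was made of known factors and targets of coactivators that bind DNA through TEAD factors. Its higher share can follow from that choice of genes, so it is no independent evidence and was not tested. TGANTCA, the AP-1 element, was in 27 of the 178 (15.2%), against 4.8% of counted genes and 7.8% of all promoters. CCGGAAG, an ETS element common at broadly active promoters, was in 7 of the 178 (3.9%), in 2224 of the 13108 and in 10.7% of all promoters. Promoters with fewer than 10 CG dinucleotides made up 30.9% of the 178, 15.7% of counted genes and 44.0% of all promoters, so base composition differed between these groups, and its part in the motif shares was not tested. Windows with GGAATG in capitals are shown for the most abundant target, ANKRD1 (chr10:90921188-90921237, minus strand), for CCN2, the current symbol of CTGF (chr6:131951449-131951498, minus strand), which holds the letters at 2 places in the window, and for YAP1 itself (chr11:102110263-102110312, plus strand).
ANKRD1: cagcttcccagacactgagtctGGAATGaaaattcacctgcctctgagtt
CCN2: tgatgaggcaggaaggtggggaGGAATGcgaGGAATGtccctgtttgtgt
YAP1: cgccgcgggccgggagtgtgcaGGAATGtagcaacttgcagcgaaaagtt
They began 128, 104 and 162 bases before the start, for CCN2 counted from the copy shown to the left. Further copies began 220 bases before the start of ANKRD1 and 169 bases before that of CCN2. These are letter matches in RefSeq (GRCh38.p14) windows and no measure of binding.

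**Figure D4:**
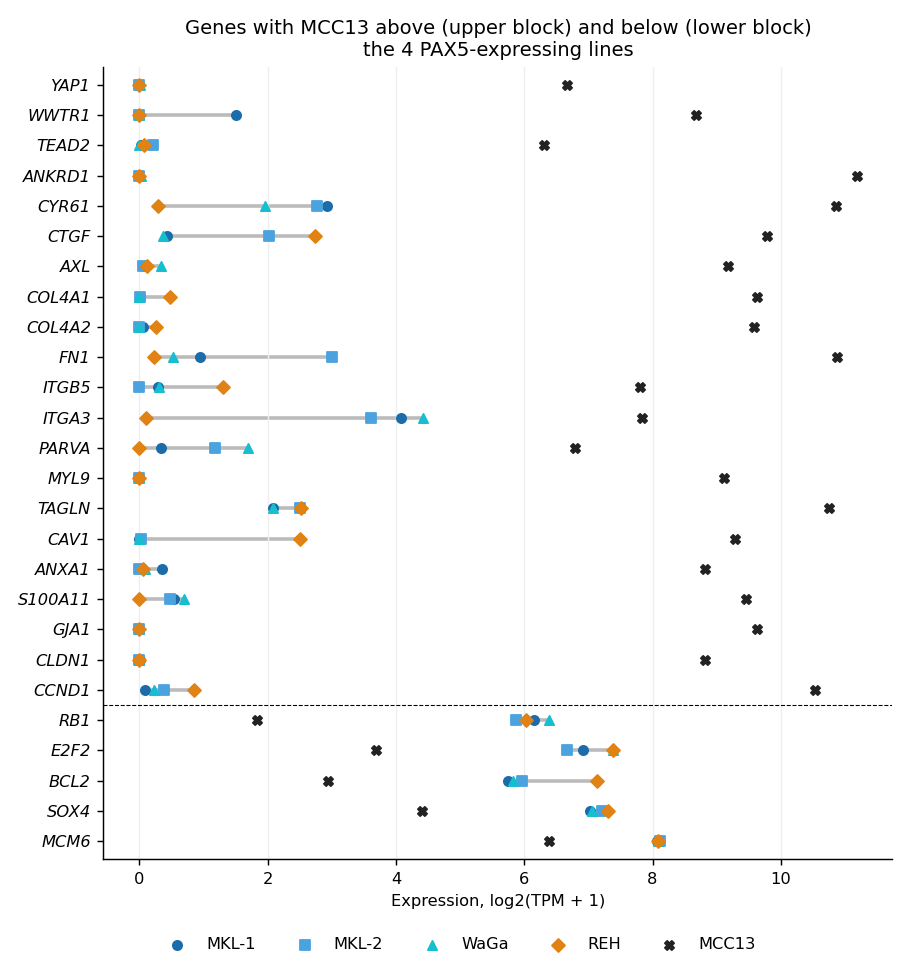
Level (horizontal axis, log2(TPM + 1)) in each of the 5 lines, 1 library per line, for genes with MCC13 above (upper block, from YAP1 to CCND1) and below (lower block, from RB1 to MCM6) the other 4; grey bars span the 4 PAX5-expressing lines. MCC13 lies outside the bar in every row, and the widest separation is that of ANKRD1, at 2320.1 TPM.

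The cell surface and matrix lists showed the same side. Of 52 counted matrix genes, 36 (69.2%) were above and 1 below (median 4.36). Their summed level was 16422 TPM in MCC13, compared with 501.2 to 1082 TPM for the other lines. FN1, fibronectin, had 1868 TPM in MCC13 against at most 7.04 TPM (MKL-2) elsewhere. The exception was LAMA3, a laminin chain, with 41.7 TPM in MKL-1, 26.1 in WaGa, 27.2 in MKL-2, 8.90 in REH and 0.642 in MCC13. Of 18 counted integrins, 9 were above and none below (median 2.31), none of them an MCC13 member. ITGB5, a vitronectin receptor chain, had 222 TPM in MCC13 against at most 1.47 TPM (REH) elsewhere. ITGA3, a laminin receptor chain, had 15.9 TPM in MKL-1, 20.5 in WaGa, 11.3 in MKL-2, 0.0790 in REH and 228 in MCC13, so the lines already differed widely for it. Of 33 counted focal adhesion genes, 18 were above and none below (median 3.47). PARVA, which links integrin-linked kinase to actin, had 0.267 TPM in MKL-1, 2.24 in WaGa and 1.27 in MKL-2, was listed at 0 in REH, and had 110.0 TPM in MCC13.

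Of 38 counted caveola and contractile actin genes, 28 (73.7%) were above and none below (median 3.81). TAGLN, a calponin family actin-binding protein, had 3.24 TPM in MKL-1, 3.25 in WaGa, 4.69 in MKL-2, 4.73 in REH and 1715 in MCC13. CAV1, the caveola coat protein, had 625 TPM in MCC13, 4.68 TPM in REH and at most 0.0220 TPM in the Merkel cell carcinoma lines. The MCC13 members on the list were MYL9, CALD1 (379 TPM) and CNN1 (260.3 TPM), the latter pair actin-binding proteins of contractile cells. Of 28 counted annexins, S100 proteins and galectins, 14 were above and 1 below (median 2.37). Members were ANXA1 (449 TPM), ANXA3 (194 TPM), S100A10 (78.5 TPM), S100A11 (701 TPM) and S100A2 (10.5 TPM). Without REH 4 genes of the list were below. S100A1 was the gene below, at 0.784 TPM in MCC13 and 4.55 TPM in MKL-2, its nearest line.

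Lists of receptor kinases and signalling ligands held more genes above than below. Of 42 counted receptor kinases and their ligands, 17 were above and 2 below (median 1.45), and without REH 5 were below. The members on this list were AXL, VEGFC, FGF1 and OSMR, the last a cytokine receptor that is not itself a kinase. EPHA2, an ephrin receptor, had 7.65 TPM in MKL-1, 0.607 in WaGa, 1.49 in MKL-2, 0.207 in REH and 536 in MCC13. MET, the hepatocyte growth factor receptor, had 14.9 TPM in MKL-2, at most 0.0573 TPM in the other PAX5-expressing lines and 424 TPM in MCC13. Among the 2 below was INSR, the insulin receptor, with 36.5 TPM in MKL-1, 37.5 in WaGa, 38.4 in MKL-2, 136 in REH and 5.82 in MCC13. Of 38 TGF-beta and BMP pathway genes, 11 were above and 2 below (median 1.06), with INHBA (116 TPM), SMAD6 (21.4 TPM) and BMP4 (12.3 TPM) as members, and without REH 17 were above and 5 below. Of 40 inflammatory cytokine and NF-kB genes, 23 were above and 2 below (median 2.87). CXCL1, a neutrophil chemokine, had 247 TPM in MCC13 and 0.351 TPM in MKL-2 and was listed at 0 in the other 3. IL6 had 127 TPM against at most 0.799 TPM, and IL13RA1 was the remaining member. TNF and TNFAIP2 were the 2 below, TNF with 2.28 TPM in MKL-1, 12.015 in WaGa, 10.9 in MKL-2, 68.2 in REH and 0.0919 in MCC13.

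**Figure D5:**
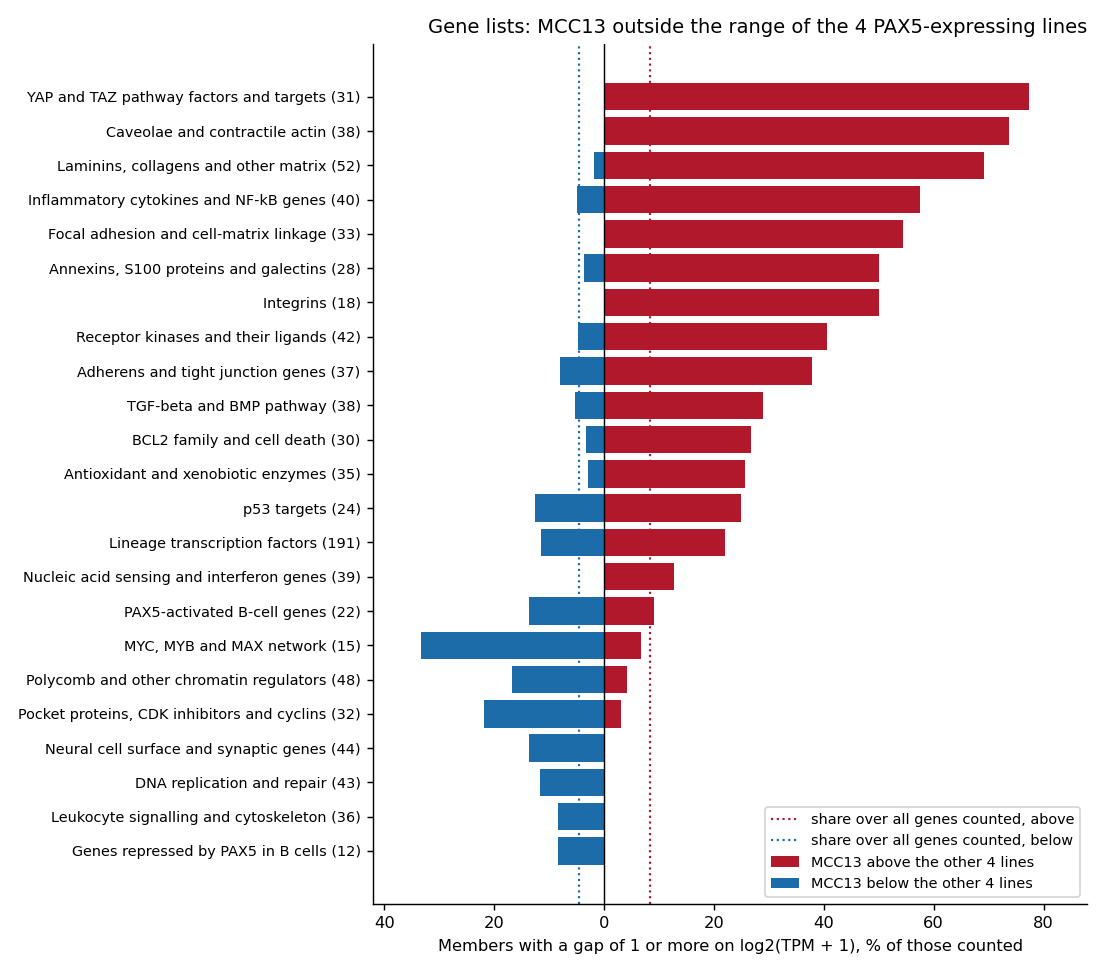
Share of the counted members of each gene list (number in parentheses) with MCC13 above (red, to the right) or below (blue, to the left) the other 4 lines by a gap of 1 or more on log2(TPM + 1). Dotted lines mark the share over all counted genes, 8.28% above and 4.62% below; the YAP and TAZ list reaches 77.4% above.

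Developmental transcription factors of several lineages were among the MCC13 genes. The 12 members on the lineage list were FOXC2, TFAP2C, TEAD2, TBX18, BNC1, GLIS3, SOX9, HOXB7, TWIST2, GATA6, RUNX2 and HOXC8. FOXC2, a factor of mesenchyme and vessels, had 129.9 TPM in MCC13 and 0.0334 TPM in WaGa and was listed at 0 in the other 3. TFAP2C, a factor of ectoderm and germ cells, had 97.6 TPM in MCC13 and 0.0415 TPM in MKL-2 and was listed at 0 in the other 3. SOX9, BNC1 and TWIST2 were listed at 0 in all 4 lines and stood at 17.9, 23.3 and 13.7 TPM in MCC13. FOSL1, an AP-1 subunit, was above by a gap of 7.44 with 415 TPM, and missed the member rule because REH held 1.39 TPM.

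The remaining lists covered junctions, enzymes, p53 targets and interferon genes. Of 37 counted junction genes, 14 were above and 3 below (median 1.35), with GJA1, CLDN1 and PVRL3 (37.2 TPM) as members, and without REH 12 were below. Of 35 antioxidant and xenobiotic enzymes, 9 were above and 1 below (median 0.44). GPX8 and NNMT were listed at 0 in all 4 lines and had 57.5 and 54.2 TPM in MCC13. Of 24 p53 targets, 6 were above and 3 below (median -0.17), and without MKL-2 or REH 5 were below. Of 39 nucleic acid sensing and interferon genes, IFITM3, GBP2, DDX58, GBP1 and IFITM2 were above and none below (median 0.67). These were 12.8% of the list, near the 8.28% of all counted genes above, and without REH 15 were above. REH held more of the list than MCC13, with 31 against 24 genes at 10 TPM or more. The summed level was 2283.2 TPM in REH and 1776.3 TPM in MCC13. IFITM3, which blocks virus entry, had 413 TPM in MCC13, 39.0 TPM in REH and at most 0.588 TPM in the Merkel cell carcinoma lines.

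Markers of other cell types were read beside these lists. Of 5 counted fibroblast markers, THY1 (364 TPM in MCC13) and COL1A2 (47.8 TPM) were above, and the summed level was 453.8 TPM in MCC13, compared with 3.8 to 68.9 TPM for the other lines. Without REH 4 were above. LUM was listed at 0 in MCC13, COL3A1 stood at 0.156 TPM, DCN at 0.186 TPM and PDGFRA at 0.934 TPM. In bulk RNA, fewer cells of a type and less RNA per cell cannot be told apart. Of the keratinocyte markers KRT14 (1.19 TPM) was above and KRT5, KRT1 and DSG3 were listed at 0 in MCC13. MITF (16.1 TPM) and CD68 (17.3 TPM) were the melanocyte and myeloid markers above, whereas TYR, DCT, MPO, LYZ and AIF1 were listed at 0 in MCC13. No endothelial marker reached 1 TPM in any line, and CD3D, CD3E, CD3G, NKG7 and GNLY were listed at 0 in MCC13. The part of any other cell type in the matrix and contractile counts was not tested.

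Some MCC13 genes were neighbours in the genome. Of 239 members placed in GENCODE 29 order, 24 (10.0%) lay next to another member, where 2.22% of 21228 placed genes lay next to one. The pairs included COL4A1 and COL4A2 on chromosome 13, which share a promoter region on opposite strands, S100A10 and S100A11 on chromosome 1, and the chemokine genes CXCL1 and CXCL6 on chromosome 4. Members near the thresholds were TLL1 (10.0 TPM in MCC13) and PADI1 (10.3 TPM), just inside, and PRKCDBP (9.9965 TPM) and TMEM204 (9.96 TPM), just outside. At the 1 TPM limit S100A2 (0.961 TPM in WaGa) and IRAK2 (0.950 TPM in REH) were just inside, and MGST2 (1.0015 TPM in REH) and BMPER (1.01 TPM in MKL-2) just outside.

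Among the 4 lines that could be left out, REH moved the counts most. Without it the shared class grew from 38 to 330 genes and the MCC13 class from 244 to 410, the genes below by a gap of 1 or more became 2778 and those above 2541. Leaving out MKL-1, MKL-2 or WaGa gave 46 to 48 shared genes and 271 to 297 MCC13 genes. MCC13 itself is a single line and cannot be left out.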

How the data were processed

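Total RNA of 5 cell lines was enriched for poly(A) RNA and sequenced with a directional kit, per the labels' protocols. The TPM values were computed by the authors, and the deposited PAX5 exon signal was scaled by the authors with a method not given in the sources used here. The submitters' processing notes name bcl2fastq 2.20, STAR 2.4.5b, StringTie 1.3.5, SAMtools 0.1.19, hg19 and GRCh37, without roles. The 2 value columns, 1 per table, that matched no sample were not used. TPM keeps no depth, so no interval or floor is given.

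With Python 3.11.15, pandas 2.3.3 and numpy 2.4.6, the lines were split by PAX5 (10 TPM or more, under 1 TPM), and genes were classed by the same thresholds and by the gap on log2(TPM + 1), which understates changes of low genes. The classing was tested on simulated data. GENCODE 29 gave types and gene order (52338 of 57905 identifiers matched), and RefSeq GRCh38.p14 gave promoters, whose motifs were chosen after the files were seen. Where 1 of the 246 symbols shared by several identifiers was on a list, the protein-coding entry with the highest total TPM was used, and date-like names (SEPTIN10 and MTARC2 among the MCC13 genes) were resolved by identifier. Of 976 distinct list entries, 974 were matched, TNS2 and PECAM1 being the exceptions. Junction, antioxidant and all other lists, the members and the thresholds were chosen with earlier results of these data known.

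Genes were named by rule: PAX5 and EBF1, the 12 members with the widest gap per direction, up to 4 genes per list and direction, members among lineage factors, the 6 most even shared genes, the 4 with REH furthest above and the 4 furthest below, 2 on each side of each threshold, and all markers. Pseudogenes, clone names, immunoglobulin and T-cell receptor segments, Y-linked genes and XIST were passed over. A further 22 genes, YAP1, WWTR1, CTGF, FN1, CAV1, SOX4, ZNF320, TENM4, DDN, DHRS3, FAM19A5, RBL2, E2F1, MCM2, MYCL, IFITM2, S100A10, VEGFC, OSMR, FGF1, BMP4 and IL13RA1, were named after their values were seen, and CDKN2C and CXCL6 are named without values to complete a group or pair. Some genes that meet the naming rule are not reported here. Each line has 1 library, so n counts lines and a spread is between lines.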

Additional observations from a re-analysis of the deposited data

Results flagged for a closer look

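In 2 of the 31 nameable shared genes, REH stood apart from MKL-1, MKL-2 and WaGa by a gap that took up most of the range over the 4 lines. For VWA5B2 the gap was 0.936 of the range, with REH lowest at 28.3 TPM and the other 3 between 60.9 and 64.1 TPM. For DTX1 it was 0.927 of the range, with REH highest at 276 TPM and the other 3 between 15.8 and 19.6 TPM. Both exceed the critical value of Dixon's gap test for 4 values. Chance alone marks about 1 in 20 groups, so 2 among 31 genes is about the number that chance gives. The 4 values are single libraries of different lines and were also used to choose the genes, so they are given as a description.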

How the results depend on the processing

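No paired analysis was possible because each line has 1 library, the replicate number 1 of every line pairs nothing, and the comparison with MCC13 rests on no test. The shared count of 38 became 94 with thresholds of 5 and 1 TPM, 10 with 20 and 1 TPM, and 14 with 10 and 0.1 TPM, and ranged from 46 to 330 with 1 line left out. The MCC13 count of 244 became 385, 159 and 109 under the same thresholds and 57 without genes listed at 0 in any line, and ranged from 271 to 410 with 1 line left out. Genes below by a gap of 1 or more (1029) became 2018 with a pseudocount of 0.1, 487 with a pseudocount of 5, 215 with a gap of 2 and 6052 with any gap, and ranged from 1210 to 2778 with 1 line left out. Genes above (1843) became 1192 with a pseudocount of 5, 931 at a mean of 5 TPM or more, 896 with a gap of 2, 4429 with any gap and 966 without genes listed at 0, and ranged from 1963 to 2541 with 1 line left out. The highest value of each range is that without REH. Fewer lines or looser limits admit more genes by construction. Quantile normalization gave 37 shared genes (32 of them in both) and 275 MCC13 genes (241 in both), and the share of genes above among all with a gap of 1 or more went from 64.2% to 69.9%. Of 178 named genes with a gap of 1 or more, the gap fell under 1 in 21 of 1424 combinations of gene and setting, mostly with a pseudocount of 5. None changed side, which another pseudocount or a left-out line cannot bring about. Depth is unknown, and 1 library per line leaves the error of each line unmeasured.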
